A study of Saccharomyces cerevisiae with 21 samples.

Results

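Flocculins and mating adhesins are cell wall proteins with which yeast cells hold on to each other, and 6 of their genes in biofilms of Saccharomyces cerevisiae are described here. The genes were chosen by name from the 7126 features of the count tables: the flocculin genes FLO1 (YAR050W), FLO5 (YHR211W), FLO9 (YAL063C) and FLO10 (YKR102W), and the mating adhesin genes AGA1 (YNR044W) and FIG2 (YCR089W). All 6 had counts in every library and all 6 passed the filter on low counts, with 14 to 3043 counts per library. The study compared biofilms of 7 strains of the Sigma1278B background, 3 libraries each: the wild type (WT), a dig1 mutant, which the labels call hyperfilamentous, and 5 mutants they call hypofilamentous (ste12, spt8, rim101-531, ras2, rtg3). All strains shared the same culture, a 16 h liquid glucose culture at 30 °C that was set to OD600 20 and placed as 10 µl spots on galactose plates of 2% agar for 24 h, and polyadenylated RNA of the biofilms was sequenced. The labels name the mutated gene and give neither the construction of the alleles, nor the number of clones or separate cultures behind the libraries, so that a p-value here covers no more than the variation among these libraries, possibly technical.

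Flocculins bind mannose chains on the walls of neighbouring cells and so make cells clump. Many of their genes lie near chromosome ends, where they are often silent, and a few are switched on at a time by the transcription factors Flo8 and Mss11 and kept off by Tup1, Cyc8 and Sfl1. Aga1 is the wall anchor of the a-agglutinin, to which the small binding subunit Aga2 is attached by disulfide bonds, and Fig2 is a related wall protein made in mating cells of either type. Ste12, a transcription factor that the pheromone and filamentation pathways act on, drives mating adhesin genes through the letters TGAAACA, and acts with Tec1, which binds CATTCC or CATTCT, on filamentation genes. Dig1 represses Ste12. Spt8 belongs to the SAGA coactivator complex, Rim101 represses genes when the medium turns alkaline, Ras2 is a small GTPase that turns on cyclic AMP signalling, and Rtg3 is a transcription factor that responds to the state of the mitochondria.

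The sequences are shown first because 3 of the genes share long stretches, which limits where their reads can be placed. All sequences and positions here are those of the reference genome, build R64. Whether the Sigma1278B strains carry the same repeats, shared runs and upstream letters was not examined. All 4 flocculin genes are near a chromosome end in the genome build R64, at 16951 bases from it (FLO10, chrXI:646356-649865), 22202 bases (FLO1, chrI:203403-208016), 23999 bases (FLO9, chrI:24000-27968, on the reverse strand) and 34024 bases (FLO5, chrVIII:525392-528619). FIG2 (chrIII:267434-272263) and AGA1 (chrXIV:703699-705876) lie 44357 and 78457 bases from an end, and each of the 6 genes is annotated with 1 exon. FLO1, FLO5 and FLO9 end in the same 109 bases, stop codon included, which encode the tail where such wall proteins receive their lipid anchor. The run is shown with the last 109 bases of FLO10 below it, in which capitals mark the 80 bases equal to the run at the same place (73.4%).
FLO1, FLO5 and FLO9: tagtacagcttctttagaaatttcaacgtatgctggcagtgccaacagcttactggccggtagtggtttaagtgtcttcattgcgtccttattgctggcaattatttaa
FLO10: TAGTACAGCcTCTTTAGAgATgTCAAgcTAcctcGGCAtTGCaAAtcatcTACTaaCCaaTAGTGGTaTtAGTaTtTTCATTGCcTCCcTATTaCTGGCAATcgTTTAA
The run stands at chrI:207908-208016 in FLO1, at chrVIII:528511-528619 in FLO5 and at chrI:24000-24108 in FLO9, and the FLO10 stretch at chrXI:649757-649865. The longest run that FLO1 shares with FLO9 is 817 bases, and with FLO5 it is 221 bases. With FLO10 it is 23 bases, and AGA1 and FIG2 share at most 17 bases with each other.

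Of all 50-base windows, 63.4% of FLO9, 53.8% of FLO1 and 38.6% of FLO5 have an exact copy elsewhere in R64, against 12.8% of FLO10, 6.73% of FIG2 and 2 of the 2129 windows of AGA1. Among all protein-coding genes, 91.6% have no such window. With 100-base windows the shares are 46.2% for FLO9, 37.1% for FLO1, 12.5% for FLO5, 6.19% for FLO10, 4.69% for FIG2 and 0 of 2079 windows for AGA1. FLO1 shares 40.9% of its 50-base windows with FLO9, and FLO9 47.4% of its own with FLO1. All 444 copied 50-base windows of FLO10, all 322 of FIG2 and both of AGA1 have a copy inside the same gene. None of these 3 genes shares a 50-base window with another of the 6 genes. Alignments to more than 1 place in R64 were set apart in the deposited tables, so levels of FLO1, FLO5 and FLO9 are those of parts distinct in that build. Such alignments made up 27.9% ± 0.654 (SD, n = 3) of alignment records for the dig1 libraries, against 21.2% ± 0.417 for those of WT, and their part in the results on FLO1, FLO5 and FLO9 was not tested.

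**Figure D1:**
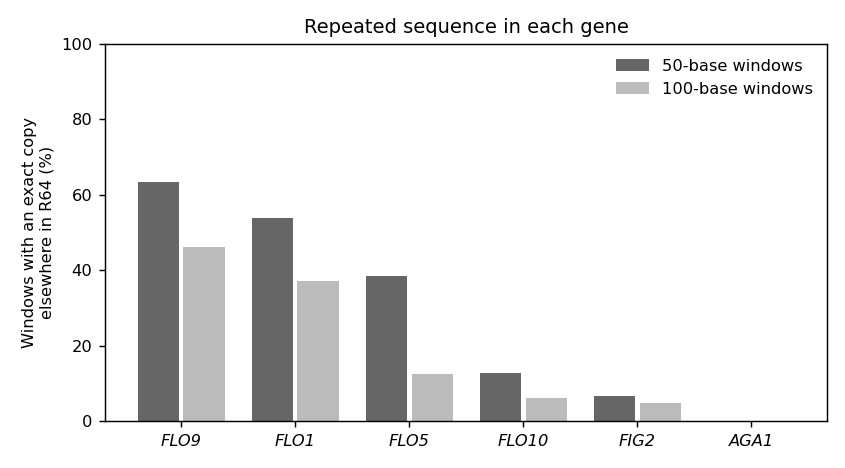
Share of windows of 50 bases (dark bars) and 100 bases (light bars) of each gene, in percent, that have an exact copy elsewhere in the genome build R64, on either strand. FLO9, FLO1 and FLO5 have the highest shares, at 63.4%, 53.8% and 38.6% for 50-base windows, and AGA1 the lowest, with 2 of 2129 windows.

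The upstream sequences were searched for the letters that Ste12 and Tec1 bind. TGAAACA, searched on both strands in the 600 bases before the start codon, occurred 2 times before FIG2 and 1 time before AGA1, and not before the 4 flocculin genes, while 14.5% of 6018 protein-coding genes hold it there. CATTCC or CATTCT, whose letters do not overlap those of TGAAACA at these places, occurred 1 time each before FLO5, FLO9 and FLO10 and not before FLO1, AGA1 or FIG2, and 47.8% of genes hold one of them. The stretches that hold the letters before the genes that rose in dig1 are given here from RefSeq R64 with 20 bases on each side, in the direction of the gene, with TGAAACA or CATTCT in capitals as they read on either strand.
AGA1: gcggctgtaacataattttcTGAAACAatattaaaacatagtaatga
FIG2: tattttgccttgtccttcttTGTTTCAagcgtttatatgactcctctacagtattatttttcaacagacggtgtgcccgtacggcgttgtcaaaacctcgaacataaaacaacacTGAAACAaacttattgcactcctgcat
FLO10: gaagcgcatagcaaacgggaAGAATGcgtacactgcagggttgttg
The AGA1 stretch (chrXIV:703477-703523) has its match starting 202 bases before the start codon, the FIG2 stretch (chrIII:266965-267106) has matches starting 449 and 354 bases before it, and the FLO10 stretch (chrXI:645917-645962) has its match starting 419 bases before it. The gap to the next annotated gene upstream is 613 bases for AGA1 and 587 for FIG2, but 3598 to 7217 bases for the 4 flocculin genes, so the window covers a small part of their upstream sequence. A match is a run of letters in R64 and not a measured binding site.

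Depth and labels were checked over the 21 libraries. Counts on features ran from 2388813 to 3987529 per library. Levels are CPM, counts divided by library totals that were corrected with the normalization factors, times 1000000, as mean ± SD of n = 3, and log2 fold changes are edgeR estimates ± standard error with Benjamini-Hochberg adjusted p-values over the 5786 tested genes, with 0.05 as the threshold. SPT8, RAS2 and RTG3 had 0 counts in their own mutants and DIG1 had 1, whereas STE12 kept 187 counts in ste12 (534 in the wild type) and RIM101 1354 in rim101-531 (1647 in the wild type), so that neither of these labels is checked by the count of its own gene. The submitters' naming gives the rim101-531 and rtg3 libraries the same strain number. RTG3 had 0 counts in the rtg3 libraries and 358 in those labelled rim101-531, which separates the 2 groups but does not show what the latter carry. Genes of MATa cells were detected in every strain, BAR1 at 12.1 to 604, STE2 at 55.2 to 575 and STE6 at 34.3 to 142 CPM. AGA2 lay at 1.70 to 37.5 CPM and MFA1 at 0 to 2.42 CPM over the libraries, while MFA2 had no counts. The summed level of these 6 genes ran from 109.9 CPM (ste12) to 1356 CPM (dig1). Of the genes of MATalpha cells SAG1 and STE3 were also present (33.9 to 66.9 and 22.7 to 40.5 CPM). MF(ALPHA)1 lay at 0 to 3.71 CPM and MF(ALPHA)2 at 0.85 to 5.35 CPM. In each of the 7 strains libraries 1 and 2 were the pair that differed most over all genes. The lowest of the 3 libraries was library 2 in 6 of 7 strains for FLO5, and in 5 of 7 for FLO9 and FLO10. It was library 2 in 4 of 7 for AGA1, in 3 for FIG2 and in 2 for FLO1, which was lowest in library 3 in the other 5.

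FLO10, a flocculin that gives adhesion and clumping when it is switched on, had the widest range of the 6 genes, a factor of 43.6 between the highest and the lowest strain. In dig1 it stood at 1018, 1000.2 and 998 CPM, and in the wild type at 56.1, 39.7 and 65.6 CPM. All 3 dig1 libraries lay far above every other library, and their spread of 1.09% of the mean was the smallest of any strain. FLO10 was 18.7-fold higher in dig1 than in the wild type (95% interval of the fit 12.4 to 28.2, adjusted p = 5.48e-09 by edgeR). In ste12 the libraries held 38.2, 12.3 and 23.7 CPM, all below the lowest wild-type library. FLO10 fell there by 1.13 ± 0.30 on the log2 scale (adjusted p = 0.0202). That call is not firm: without wild-type library 1 or 3, or without ste12 library 2 or 3, the adjusted p lay between 0.0544 and 0.112. In spt8 the levels were 42.0, 21.1 and 38.8 CPM and in rtg3 35.3, 44.9 and 35.5 CPM, which overlapped the wild type in both cases and did not pass (log2 fold changes -0.66 ± 0.28 and -0.48 ± 0.27, adjusted p = 0.0941 and 0.224). Without library 2 of every strain, a setting chosen after the data were seen, they did pass (log2 fold changes -0.58 and -0.76, adjusted p = 0.0250 and 0.00589). The rim101-531 libraries (67.2, 61.1 and 63.6 CPM) and the ras2 libraries (71.9, 43.4 and 55.1 CPM) lay around the wild type. Their log2 differences from it had 95% intervals of -0.32 to 0.82 and -0.49 to 0.64.

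FLO10 in dig1 stood 40.9-fold above ste12 (log2 fold change 5.35 ± 0.31, adjusted p = 1.74e-10). In the order of the strains dig1 came first, 3.97 ± 0.28 on the log2 scale above rim101-531, the next one down. The neighbours further down did not pass (adjusted p from 0.224 to 0.869). Of the 21 pairs of strains FLO10 differed in 10, 6 of them pairs with dig1. Per length, FLO10 in dig1 reached 286 ± 3.12 CPM per kb, while FLO11, the flocculin of filaments and mats, stood at 8351 ± 95.9 CPM per kb in the same strain. The level of FLO11 per length was 277 ± 101 times that of FLO10 in the wild type, 29.2 ± 0.373 times in dig1 and 15.6 ± 2.04 times in rtg3. These ratios use full lengths and may understate FLO11, since 28.0% of its 50-base windows have a copy elsewhere in R64, against 12.8% for FLO10. The pooled SD of log2 CPM of FLO10 over libraries of the same strain was 0.42. It lay above that of 93.7% of 1355 genes of like mean level, whose median was 0.16. That level was the mean over all 21 libraries, 182 CPM for FLO10, which dig1 raised. Outside dig1 no library held more than 71.9 CPM (ras2 library 1), and the rank of FLO10 among genes of that lower level was not tested. In the groups drawn the same way for AGA1 (mean 56.9 CPM) and FLO1 (14.4 CPM) the median SD was 0.18 and 0.25. In bulk RNA, more cells with the gene on and more RNA per cell cannot be told apart.

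**Figure D2:**
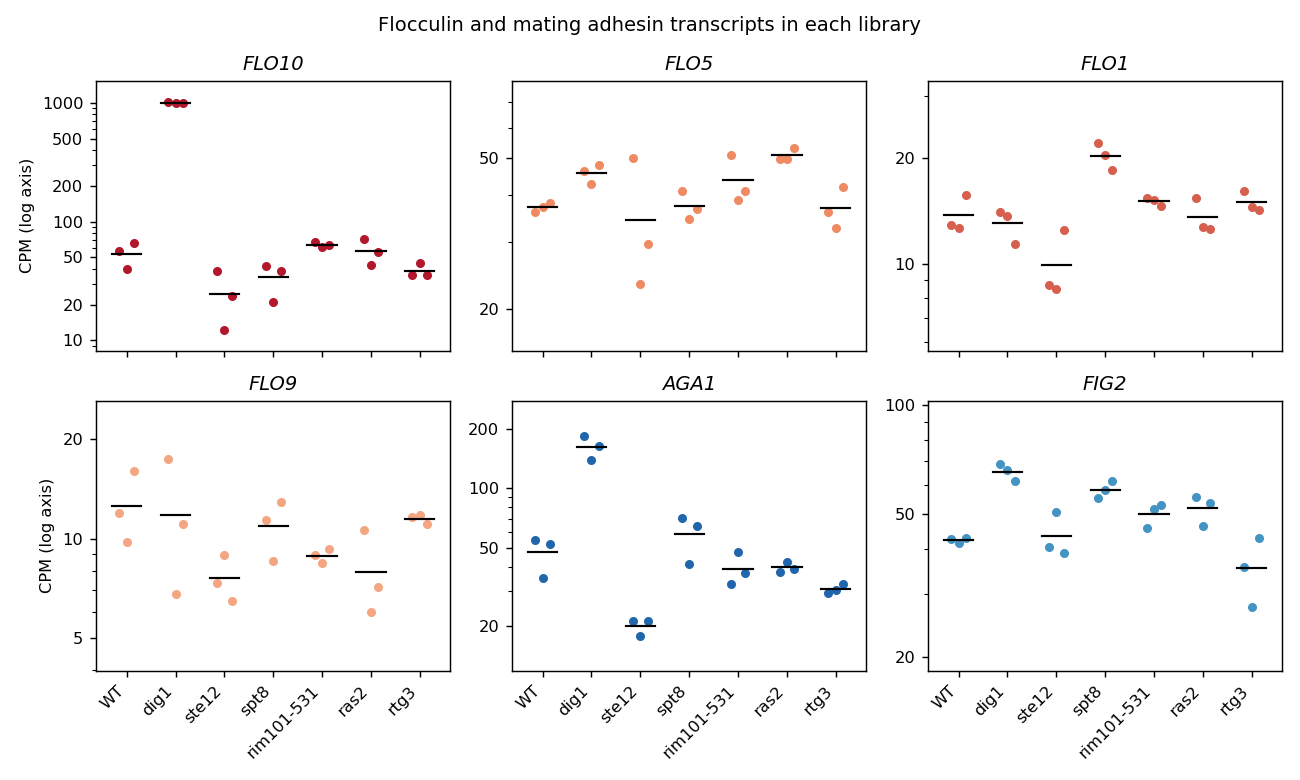
CPM on a log axis, with a range of its own in each panel, for the 6 genes in each of the 21 libraries (points, libraries 1 to 3 from left to right) with the mean of each strain (bar). FLO10 stands near 1000 CPM in dig1 alone, AGA1 is highest in dig1 and lowest in ste12, and FLO1 is highest in spt8.

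FLO5, FLO1 and FLO9, the flocculins whose products bind mannose and cause strong clumping, did not pass in dig1 against the wild type, where FLO10 rose. FLO5, at 46.2, 42.6 and 48.0 CPM in dig1 and 36.1, 37.1 and 38.0 CPM in the wild type, had groups that did not overlap and a log2 fold change of 0.30 ± 0.18 (adjusted p = 0.308). FLO1 had a log2 fold change of -0.07 ± 0.16 and FLO9 of -0.09 ± 0.27 there, with 95% intervals of 0.755 to 1.19 and 0.636 to 1.39 for the fold. These intervals lie below the fold of FLO10. The levels of these genes rested on few reads, 14 to 52 counts per library for FLO9 and 19 to 70 for FLO1.

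FLO1 rose in spt8 and in no other mutant. Its spt8 libraries held 22.1, 20.4 and 18.5 CPM and those of the wild type 12.9, 12.7 and 15.7 CPM. The groups did not overlap, and the fold was 1.48 (log2 fold change 0.57 ± 0.15, adjusted p = 0.00816). It did not pass in a fit with these 6 libraries alone (adjusted p = 0.0532) or without library 2 of every strain (0.0983). The spt8 strain was first in the order of FLO1 levels and above all 6 other strains, rim101-531 being the nearest (log2 difference 0.43 ± 0.15, adjusted p = 0.0439). The ste12 strain was last, at 9.92 ± 2.26 CPM, and did not pass against the wild type (log2 fold change -0.47 ± 0.17, adjusted p = 0.156). By edgeR it did lie below rtg3 (-0.59 ± 0.17, adjusted p = 0.0156) and rim101-531 (-0.61 ± 0.17, adjusted p = 0.0481). FLO1 differed in 8 of the 21 pairs of strains. Of the 7 tested neighbours of FLO1 on chromosome I, 4 rose and 1 fell in spt8 (11.1% and 14.4% of all tested genes). The risers were SWH1, a homologue of oxysterol-binding proteins 7217 bases upstream (0.77 ± 0.12), PRM9 (0.79 ± 0.28), YAR066W and YAR068W. YAT1, a carnitine acetyltransferase further upstream, fell by 2.52 on the log2 scale (60.3 ± 4.15 CPM against 345 ± 3.27). Whether the rise of FLO1 is tied to that of its neighbours was not tested.

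FLO5 was the most abundant of the 3, between 34.4 CPM in ste12 and 50.8 ± 1.98 CPM in ras2. The ras2 libraries, at 49.6 to 53.1 CPM, all lay above those of the wild type, but the difference did not pass (log2 fold change 0.45 ± 0.17, adjusted p = 0.0612). It did pass with the DESeq2 Wald test (0.0371), with the size factors of DESeq2 in edgeR (0.0484) and with the 6 libraries of both strains alone (0.00894). In the fit of all libraries FLO5 differed in 2 of the 21 pairs of strains by edgeR. It was lower in ste12 than in ras2 (log2 fold change -0.57 ± 0.18, adjusted p = 0.0217) and higher in ras2 than in rtg3 (0.45 ± 0.17, adjusted p = 0.0494). The ste12 libraries were far apart, at 50.1, 23.4 and 29.7 CPM. FLO9 lay between 7.59 ± 1.23 CPM in ste12 and 12.6 ± 3.20 CPM in the wild type and passed in none of the 21 pairs of strains in the fit of all libraries. In ras2 its log2 fold change was -0.68 ± 0.28 (adjusted p = 0.0806), which passed without ras2 library 1 (-0.93, adjusted p = 0.0356) and with the replicate number as a block (0.0474). Of 4 annotated fragments of FLO genes, YAR061W, YAR062W and YHR213W had 0 counts in all 21 libraries, which allows up to 0.0467 CPM at 3 counts over the series, and YAL065C had 0 to 4 counts per library.

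AGA1, the anchor subunit of the a-agglutinin, fell in ste12 and rose in dig1. Its dig1 libraries held 185, 138 and 164 CPM, its wild-type libraries 54.5, 35.1 and 52.3 CPM, and its ste12 libraries 21.1, 17.8 and 21.3 CPM. The 3 strains did not overlap, dig1 lying 3.44-fold above the wild type (log2 fold change 1.78 ± 0.18, adjusted p = 1.24e-06) and ste12 2.35-fold below it (-1.23 ± 0.21, adjusted p = 0.000662). Between dig1 and ste12 the difference was 8.09-fold (log2 fold change 3.02 ± 0.20, adjusted p = 1.57e-09). In rtg3 the libraries held 29.3, 30.3 and 32.5 CPM, all below the lowest wild-type library. AGA1 fell there by 0.62 ± 0.19 on the log2 scale (adjusted p = 0.0279), a call that was lost without wild-type library 1 or 3 or any 1 of the rtg3 libraries (adjusted p from 0.0669 to 0.107). The ras2 strain (39.7 ± 2.48 CPM), rim101-531 (39.2 ± 7.59 CPM) and spt8 (58.9 ± 15.4 CPM) did not pass. For ras2 and rim101-531 this changed without library 2 of every strain (log2 fold changes -0.47 and -0.61, adjusted p = 0.0200 and 0.0318), and for spt8 without its library 2 (0.52, adjusted p = 0.0373). In the order of levels dig1 stood apart from spt8, the next strain down (adjusted p = 5.14e-06), and ste12 from rtg3, the next strain up (adjusted p = 0.0375). The strains between did not separate from their neighbours (adjusted p from 0.208 to 0.974). AGA1 differed in 15 of the 21 pairs, more than any other of the 6 genes.

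FIG2, a wall protein of mating cells, rose in dig1 and spt8 and showed no fall in ste12. It stood at 68.6, 66.2 and 61.9 CPM in dig1, 55.2, 58.2 and 61.5 CPM in spt8 and 42.6, 41.6 and 42.9 CPM in the wild type. The mutant libraries all lay above those of the wild type, whose SD was 1.61% of their mean. The fold was 1.55 in dig1 (log2 fold change 0.63 ± 0.13, adjusted p = 0.00206) and 1.38 in spt8 (0.46 ± 0.13, adjusted p = 0.0145). Without spt8 library 3 the spt8 call was lost (adjusted p = 0.0578). In ste12 FIG2 had 40.5, 50.6 and 39.0 CPM, and its log2 difference from the wild type had a 95% interval of -0.26 to 0.33 (adjusted p = 0.905), where that of AGA1 was -1.68 to -0.79. The dig1 level was 1.51-fold above ste12 (adjusted p = 0.00299). The rtg3 strain was last, with 35.6, 27.6 and 42.9 CPM, and did not pass against the wild type (log2 fold change -0.25 ± 0.13, adjusted p = 0.198), but lay below dig1, spt8, ras2 and rim101-531 (adjusted p from 3.41e-05 to 0.0116). No neighbours in the order of FIG2 levels differed from each other.

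**Figure D3:**
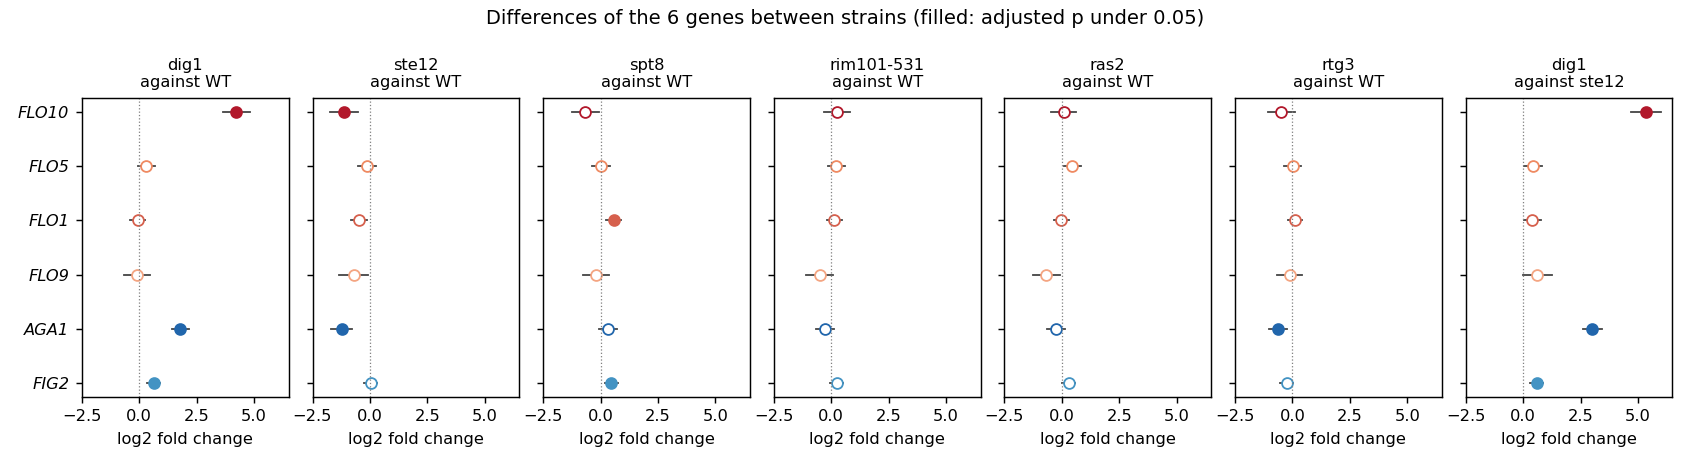
Log2 fold changes (points) with their 95% intervals (lines) for the 6 genes in the 6 comparisons of a mutant with the wild type and in dig1 against ste12, filled where the adjusted p was under 0.05. FLO10 and AGA1 move farthest, 4.22 and 1.78 in dig1 and -1.13 and -1.23 in ste12, and no point is filled for rim101-531 or ras2.

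Against the wild type, 3 of the 6 genes rose in dig1, where 15.7% of all tested genes changed, 8.02% rose and 7.69% fell. In ste12 2 of 6 fell (background 9.97% changed, 4.77% higher, 5.20% lower), in spt8 2 of 6 rose (25.5% changed, 11.1% higher, 14.4% lower) and in rtg3 1 of 6 fell (20.5% changed, 9.32% higher, 11.2% lower). In ras2 and rim101-531 0 of 6 passed by edgeR, with backgrounds of 25.3% (10.3% higher, 14.9% lower) and 3.08% (1.28% higher, 1.80% lower). In ras2 the unadjusted p was under 0.05 for FLO5, FLO9 and FIG2, of which the DESeq2 Wald test called FLO5, and in rim101-531 it was under 0.05 for none and DESeq2 called none. In dig1 against ste12 3 of 6 were higher in dig1 (background 21.7% changed, 11.6% higher, 10.1% lower). A 4th gene passed there without ste12 library 1 (FLO5, log2 fold change 0.80, adjusted p = 0.000702), without dig1 library 2 (FLO9, 0.91, adjusted p = 0.0259) and without library 2 of every strain (FLO9, 1.06, adjusted p = 0.0256). The median log2 fold change of the 6 genes was 0.46 in dig1 and -0.59 in ste12 against the wild type, beside -0.01 and -0.03 over all tested genes. These comparisons share the wild-type libraries. For the pairs of mutants, the share of all tested genes that differed was 30.0% between ste12 and spt8, 10.1% between ste12 and rim101-531, 33.2% between ste12 and ras2 and 33.4% between ste12 and rtg3. It was 27.7%, 22.6% and 34.7% between dig1 and spt8, ras2 and rtg3, and 638 of the 5786 tested genes differed between dig1 and rim101-531. It was 21.7%, 30.9% and 30.1% between spt8 and rim101-531, ras2 and rtg3, 13.1% and 23.3% between rim101-531 and ras2 and rtg3, and 30.6% between ras2 and rtg3. Per full length in the wild type, AGA1 had the highest mean level, at 21.7 ± 4.88 CPM per kb, followed by FLO10 at 15.3 ± 3.74, FLO5 at 11.5 ± 0.294, FIG2 at 8.77 ± 0.141, FLO9 at 3.17 ± 0.806 and FLO1 at 2.98 ± 0.365 CPM per kb. In dig1 the order was FLO10 (286 ± 3.12 CPM per kb), AGA1 (74.7 ± 10.7), FLO5 (14.1 ± 0.848), FIG2 (13.6 ± 0.704), FLO9 (2.96 ± 1.34) and FLO1 (2.82 ± 0.309 CPM per kb). These levels understate genes whose repeated parts gave no counts. Levels were also taken per kb without an exact 50-base copy elsewhere, a scale chosen after the data were seen. In the wild type they were 21.8 ± 4.89 CPM for AGA1, 18.7 ± 0.479 CPM for FLO5 and 17.6 ± 4.29 CPM for FLO10. FIG2 stood at 9.41 ± 0.152 CPM, FLO9 at 8.7 ± 2.2 CPM and FLO1 at 6.45 ± 0.79 CPM. The wild-type order among AGA1, FLO5 and FLO10 is therefore not settled, nor is the place of FLO9 beside FIG2 and FLO1. In dig1 the means had the same order on both scales.

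Genes whose strain pattern was most like that of a member were found for FLO10, AGA1 and FIG2, the 3 genes that passed in at least 2 comparisons with the wild type. Likeness was the root mean square difference between the 7 strain means of log2 CPM, each gene centred on its own mean. It was taken among 5284 genes with a mean count of at least 50 in their highest strain. Nearest to AGA1 were HIS3, an enzyme of histidine synthesis that is also a common selection marker (0.30), STE2, the alpha factor receptor (0.30), SVS1, a wall protein (0.31), and AGA2, the partner of Aga1 (0.31), where the median gene was at 0.89. Nearest to FLO10 were YOR387C, a paralog of VEL1 with which it may share reads (0.45), AGA2 (0.79), VEL1 (0.86) and SIM1, a wall protein of the SUN family (0.89), against a median of 1.69. YOR387C was the only one of these with a larger rise in dig1 than FLO10, from 4.44 to 491 CPM (log2 fold change 6.78). Nearest to FIG2 were SEC24, a coat protein of secretory vesicles (0.09), NUD1, a spindle pole protein (0.10), EMA19 (0.11) and PRM1, a membrane protein of mating cell fusion (0.11), against a median of 0.35. YOR387C, AGA2 and VEL1 met the limit on counts through dig1 alone. In the other strains their means were low, at 2.43 to 10.9, 1.95 to 7.03 and 3.53 to 8.11 CPM. Their likeness to FLO10 or AGA1, which also peak in dig1, is thus in part set by that limit. The likeness values describe these 7 means and carry no test.

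**Figure D4:**
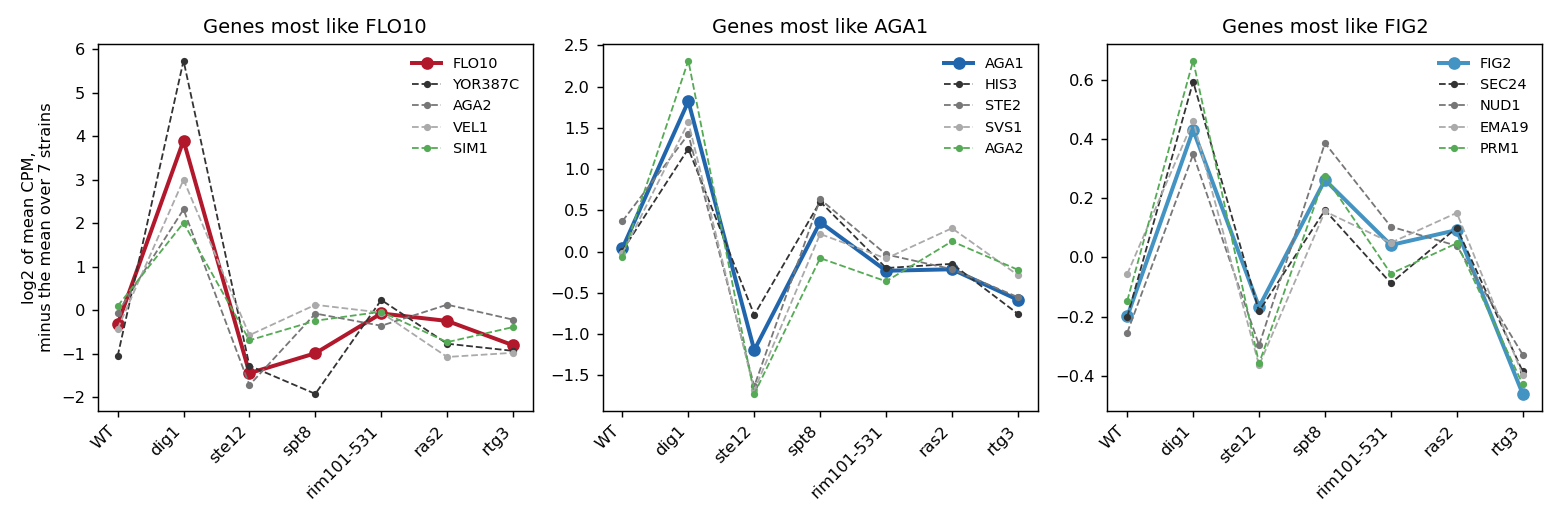
Log2 of the mean CPM in each strain, minus the mean over the 7 strains, for FLO10, AGA1 and FIG2 (thick lines) and the 4 genes most like each (dashed lines), with a different vertical range in each panel. The lines for FLO10 and AGA1 peak in dig1, and AGA1, HIS3, STE2, SVS1 and AGA2 are lowest in ste12.

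AGA2 moved as AGA1 did in the mutants of the Ste12 pathway. Its level was 6.18 ± 0.848 CPM in WT, 32.1 ± 4.98 CPM in dig1 (log2 fold change 2.37 ± 0.20, adjusted p = 1.61e-07) and 1.95 ± 0.311 CPM in ste12 (-1.65 ± 0.35, adjusted p = 0.00405), which are 81 to 112 and 4 to 5 counts per library. In rtg3, where AGA1 fell, AGA2 had a log2 fold change of -0.17 ± 0.25 (adjusted p = 0.659). SAG1, the agglutinin of alpha cells, was present at 44.1 ± 3.08 CPM in the wild type. Of 10 genes of mating adhesion and fusion 9 could be tested, FIG1 being too low. In dig1 6 rose and 0 fell (8.02% and 7.69% of all tested genes), and in ste12 3 fell and 1 rose (5.20% and 4.77%), the riser being FUS1, a protein of cell fusion (0.38 ± 0.11). PRM5, a pheromone-regulated membrane protein, and BAR1, a protease that cuts alpha factor, had the largest ranges. They stood at 349 ± 39.6 and 529 ± 75.5 CPM in dig1 and at 7.02 ± 0.464 and 13.7 ± 1.48 CPM in ste12. Both also fell in ras2 (-1.63 ± 0.16 and -1.43 ± 0.19) and in rtg3 (-1.35 ± 0.15 and -1.41 ± 0.19). In ras2 SAG1 rose, so 1 of the 9 genes rose and 2 fell (10.3% and 14.9% of all tested genes). In rtg3 0 rose and 2 fell (9.32% and 11.2%). In spt8 and rim101-531 0 of the 9 passed by edgeR, where 25.5% and 3.08% of all tested genes changed. The list's median log2 fold change was 0.67 in dig1 and -0.24 in ste12. The 4 tested markers of MATa cells (AGA2, BAR1, STE2, STE6) rose in dig1 and fell in ste12 as AGA1 did, and their part in the result on AGA1 was not tested.

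Of 21 regulators of flocculin genes, 7 rose and 1 fell in dig1, where 15.7% of all tested genes changed. The risers included the activators MSS11 (24.4 ± 2.73 to 41.2 ± 3.52 CPM, adjusted p = 0.00913) and MGA1 as well as the repressors TUP1 (0.45 ± 0.11), NRG1 (0.61 ± 0.16) and NRG2 (1.66 ± 0.16), so that activators and repressors were among them alike. FLO8, the main activator, which is intact in Sigma1278B and broken in the reference strain, had a log2 fold change of 0.25 ± 0.12 in dig1 (adjusted p = 0.172) and fell by 0.50 ± 0.13 in ste12 (28.2 ± 3.96 against 40.0 ± 3.17 CPM, adjusted p = 0.0179). TEC1, the partner of Ste12, rose in dig1 and fell in ste12, spt8, ras2 and rtg3, with 69.5 ± 6.02 CPM in WT and 27.5 ± 2.14 CPM in ste12. NRG1 and PHD1, a repressor and an activator, rose most in rtg3, NRG1 from 31.1 ± 5.02 to 127 ± 25.6 CPM and PHD1 from 23.1 ± 1.77 to 71.9 ± 6.83 CPM. In ste12 3 of the 20 other regulators rose and 3 fell (9.97% of all tested genes changed), and in spt8 4 rose and 4 fell of 21 (25.5%). In ras2 6 rose and 3 fell (25.3%), in rtg3 6 rose and 1 fell (20.5%), and in rim101-531 0 passed by edgeR (3.08%). The median log2 fold change of the list was 0.25 in dig1 and 0.02 in ste12.

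The genes beside FLO10 did not rise with it. Of its 9 neighbours on chromosome XI, 8 could be tested in dig1 against the wild type. Their log2 fold changes ran from -0.20 to 0.28, and 0 passed by edgeR. SIR1, next to FLO10 on its upstream side, stood at 32.2 CPM in dig1 and 34.6 CPM in the wild type, and NFT1, next to it downstream, at 10.00 and 10.4 CPM. Beside AGA1 the changes ran from -0.50 to 0.49 (2 of 10 higher and 2 lower), and beside FIG2 from -0.20 to 0.47 (3 of 8 higher). FLO1 showed the reverse, since 3 genes on its telomere side rose in dig1 while FLO1 did not. They were YAR066W (2.51 ± 0.39), YAR068W (2.28 ± 0.31) and PHO11, an acid phosphatase with a near-identical copy (2.34 ± 0.33), named here after their values were seen. YAR066W was low, at 1.67 ± 0.613 CPM in the wild type and 9.66 ± 3.30 CPM in dig1. Beside FLO9, BDH1, a butanediol dehydrogenase, fell in spt8 from 882 ± 9.90 to 276 ± 52.5 CPM, and GDH3, a glutamate dehydrogenase, fell in rtg3 from 178 ± 18.2 to 43.9 ± 7.69 CPM, while FLO9 passed in neither strain. Beside FLO5, YHR214W fell in rtg3 from 17.3 ± 2.89 to 1.47 ± 0.137 CPM, where FLO5 had a log2 difference of 0.00 ± 0.18. These neighbours also moved in other strains, whether FLO1 rose or not. In spt8, where FLO1 rose, YAR066W (2.35 ± 0.40) and YAR068W (2.21 ± 0.31) rose and PHO11 did not pass (0.32 ± 0.42, adjusted p = 0.614). In ste12 and rim101-531, where FLO1 did not pass, YAR068W (1.58 ± 0.32 and 1.81 ± 0.31) and PHO11 (2.13 ± 0.35 and 1.92 ± 0.35) rose, and in rtg3 YAR068W fell by 2.59 ± 0.46 on the log2 scale. Of all 45 tested neighbours, 10 rose and 4 fell in dig1 against the wild type, where 8.02% of all tested genes rose and 7.69% fell. Repeated sequence in the neighbours, YAR066W and YHR214W included, is not given here, so their counts may also come from distinct parts alone. Whether these neighbours changed independently of each other was not tested.

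**Figure D5:**
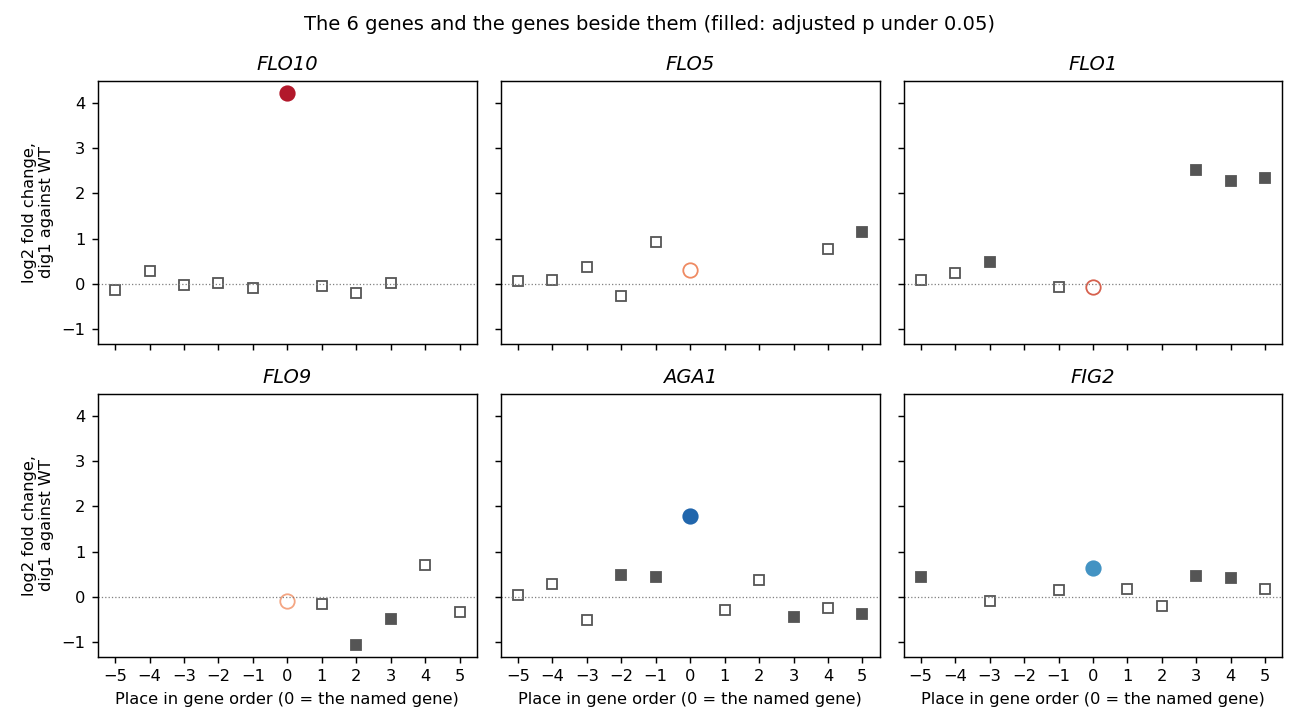
Log2 fold change in dig1 against the wild type (vertical axis) for each of the 6 genes (circle at place 0) and up to 5 annotated genes on either side (squares, in gene order along the chromosome), filled where the adjusted p was under 0.05, with no symbol for genes that could not be tested. FLO10 stands at 4.22 among neighbours between -0.20 and 0.28, and FLO1 near 0 beside 3 genes above 2.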

How the data were processed

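RNA of 21 yeast biofilm libraries, 7 strains with 3 libraries each, had been sequenced after polyadenylated RNA was selected. The deposited counts are whole numbers of reads for each gene, with no normalization by the authors. Per the submitters' processing notes, which give no roles or settings, bcl2fastq, TopHat2 2.0.19 and HTSeq 0.6.1 were used with build R64. No source used here gives the annotation version or whether counting used strand. Rows that name no gene (40.1% to 47.8% of alignment records) entered neither the library sizes nor the tests.

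Of 7126 features 6048 matched a locus tag in RefSeq's R64 annotation, which gave symbols and coordinates, and sequences were read from its genome. Depth was 2388813 to 3987529 counts per library. Counts were fitted with edgeR 4.0.16 in R 4.3.3: filterByExpr by strain (5786 genes), TMM factors (0.893 to 1.16) and 1 quasi-likelihood model over all 21 libraries, with two-sided tests. The fit was tested on simulated data. Alternatives were the DESeq2 1.42.0 Wald test, its size factors, no filter, a replicate block, the libraries of 2 strains alone, each library left out, and, chosen after the data were seen, all libraries numbered 2 left out. Named genes were the 6 members, AGA2, FLO11, the 4 most alike genes of each member that passed at least 2 comparisons with the wild type, and up to 4 per list by smallest p; other genes were named after their values were seen. The members and lists were chosen with earlier results of these data known. Replicates differed by more than sampling noise (chi-square per degree of freedom 1.93 to 56.9). No protein sequences were used, so likeness was taken from DNA in place of the planned protein alignment, and promoters were cut from the genome.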

Additional observations from a re-analysis of the deposited data

How the results depend on the processing

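Of the 42 values, 6 genes in 7 comparisons, 11 passed, and 7 of these passed under each of the 12 alternatives run for them: FLO10, AGA1 and FIG2 in dig1 against the wild type and against ste12, and AGA1 in ste12. Of the 31 others 22 stayed above the threshold throughout. The number of the 6 genes called was 2 in ste12 and 1 with the libraries of both strains alone (1 to 2 with single libraries left out), and 2 in spt8 and 1 with both strains alone (1 to 3). In ras2 it was 0, and 1 with DESeq2's test, with its size factors, with both strains alone and without the libraries numbered 2 (0 to 1 with single libraries left out). In rtg3 it was 1, and 2 without the libraries numbered 2 (0 to 1), and in rim101-531 0 and 1 (0 throughout with single libraries left out). Between dig1 and ste12 it was 3, and 3 to 4 with single libraries left out. The labels do not say that replicate numbers mark shared cultures or days. Deviations of same-numbered libraries of different strains correlated at 0.14 on average (-0.42 to 0.68), and those of different-numbered ones at -0.07 (-0.67 to 0.41). Since the deviations are from the mean of each strain, the latter average largely follows from the former and is no separate baseline. Whether the numbers mark a batch was not tested, and the main fit holds no term for them. With the replicate number as a block, FLO5 and FLO9 passed in ras2 (2 genes), and FLO10 passed in spt8 (adjusted p = 0.0349). The order of strains was the same under both scalings for the 6 genes. The sign changed in 23 of 504 alternative values, all of them uncalled. With single libraries left out, the log2 fold change ran from -0.47 to 0.12 for FLO5 and -0.084 to 0.13 for FIG2 in ste12, -0.13 to 0.055 for FLO1 and -0.46 to 0.21 for FLO9 in dig1, -0.055 to 0.069 for FLO5 and -0.35 to 0.016 for FLO9 in spt8, -0.12 to 0.079 for FLO1 and -0.13 to 0.26 for FLO10 in ras2, and -0.089 to 0.078 for FLO5 and -0.28 to 0.081 for FLO9 in rtg3. Without the libraries numbered 2 it was 0.11 for FLO5 and -0.10 for FIG2 in ste12 and 0.054 for FLO9 in dig1. FLO5 in rtg3 was at -0.0029 with DESeq2's test, -0.0025 with its size factors and -0.0032 with the block. The cause of these changes was not tested. The background count of called genes ranged from 385 (both strains alone) to 1107 (block) for 909 in dig1, from 370 (without wild-type library 3) to 774 (block) for 577 in ste12, from 62 (both strains alone) to 269 (block) for 178 in rim101-531, from 732 (without rtg3 library 1) to 1618 (block) for 1185 in rtg3, and from 606 (both strains alone) to 1442 (block) for 1255 between dig1 and ste12. In spt8 and ras2 it stayed within 1.5 times the main count.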
